A study of Mus musculus with 18 samples.

Results

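End-stage lung of irradiated C57BL/6J mice was compared with end-stage lung of irradiated A/J mice, 6 of the 18 samples of the study. The members were chosen by their titles, which name the strain and mark the mice as sick, and there were 3 of each strain, described by the labels as 3 moribund mice. Per the labels, mice of both groups were 8 weeks old when their thorax was exposed to 18 Gy of caesium gamma rays. Lead shielding cut the beam to 3% outside the thorax, and each mouse was sacrificed when moribund. The right lung of each mouse was homogenized and its total RNA was put on a single-colour oligonucleotide array.

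The irradiated A/J mice were 30 to 32 weeks old at sacrifice, 22 to 24 weeks after exposure, and the irradiated C57BL/6J mice (C57BL6/J in the labels) were 28 to 30 weeks old, 20 to 22 weeks after exposure. Untreated lungs of the same strains, also 3 each, came from mice of 15 to 26 weeks and are read beside them. Untreated mice were thus younger than the irradiated mice of these 2 strains, and age and irradiation cannot be told apart in any difference between the irradiated and the untreated strain contrast. The sex of the mice was not given, and the labels do not say whether the 3 untreated samples of a strain came from separate mice, so p-values that use them measure the spread between samples. The remaining 6 arrays, untreated and irradiated C3H/HeJ lung, entered only the estimate of the spread and a few levels quoted beside the results. Irradiated C3H/HeJ mice received the same dose at the same age but were 20 to 22 weeks old at sacrifice, 12 to 14 weeks after exposure, so their levels come from an earlier time.

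Thoracic irradiation injures the lung in phases: an early inflammatory pneumonitis of the air spaces, and a later scarring in which fibroblasts deposit collagen and other matrix. Inbred mice differ in which of these dominates. C57BL/6 mice are widely used as a strain prone to fibrosis, and A/J and C3H mice as strains prone to pneumonitis. Both phases bring inflammatory cells into the tissue, among them macrophages, lymphocytes, neutrophils and mast cells. The comparison asks how the lungs of 2 strains that reached the same clinical end point differ in RNA.

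Values are log2 signal after quantile normalization across the 18 arrays, and a difference of 1 is a 2-fold difference on the scale of signal plus 7. A positive difference means a higher signal in C57BL/6J. Whether sequence differences between the strains under the probes changed a signal was not tested, and levels below are levels of signal. A gene was called when its limma p-value, adjusted by Benjamini-Hochberg over all 12405 genes tested, was under 0.05; each adjusted p below is of that kind. The irradiated arrays of the 2 strains differed in 2415 genes, which is 19.5% of those tested. Of these, 920 (7.42%) were higher in C57BL/6J and 1495 (12.1%) were higher in A/J. The counts of each list below are to be read beside these 2 shares. The median over all genes was -0.10, so a small general shift toward A/J lies under every list below. Differences over 1 were more often in favour of C57BL/6J, with 296 called genes against 229 higher in A/J, and differences over 2 were called for 51 and 33 genes.

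The RNA of the irradiated A/J arrays stood apart from that of all other arrays on a standard check. The ratio of the 5′ to the 3′ actin probe set, which falls when RNA or its copies are shorter, was 0.413, 0.551 and 0.528 on the irradiated A/J arrays and 0.729, 0.749 and 0.712 on the irradiated C57BL/6J arrays. The means were 0.497 ± 0.0738 (SD, n = 3) and 0.730 ± 0.0186 (SD, n = 3), and the means of the other 4 groups lay between 0.709 and 0.745. No irradiated A/J array overlapped any other array in the actin ratio. The same ratio for Gapdh was 0.294, 0.876 and 1.03 on irradiated A/J arrays 1, 2 and 3, and 1.24, 1.15 and 1.13 on the irradiated C57BL/6J arrays. A/J array 1 was thus the lowest array on both ratios. Since a low actin ratio occurred in no other group, that ratio and the group of irradiated A/J mice cannot be told apart. With the log2 actin ratio as a term in the fit, 375 genes were called, 186 higher in C57BL/6J and 189 higher in A/J. Of 107 genes named below that were called, Ifi44l and Gprin3 not counted, 65 were not called in that fit. Of these 65, 28 were higher in C57BL/6J, and the 65 are named with each group of genes. Standard errors were larger in that fit, 0.513 for Col1a1 and 0.464 for Cd3d against 0.23 and 0.21 without the ratio. A lost call there therefore need not mean a smaller difference. Col1a1 moved from -1.31 to -1.25 and Cd3d from 1.26 to 1.61, while Il6 moved from -2.49 to -0.72. The part of the ratio in each result was not tested beyond that fit.

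**Figure D1:**
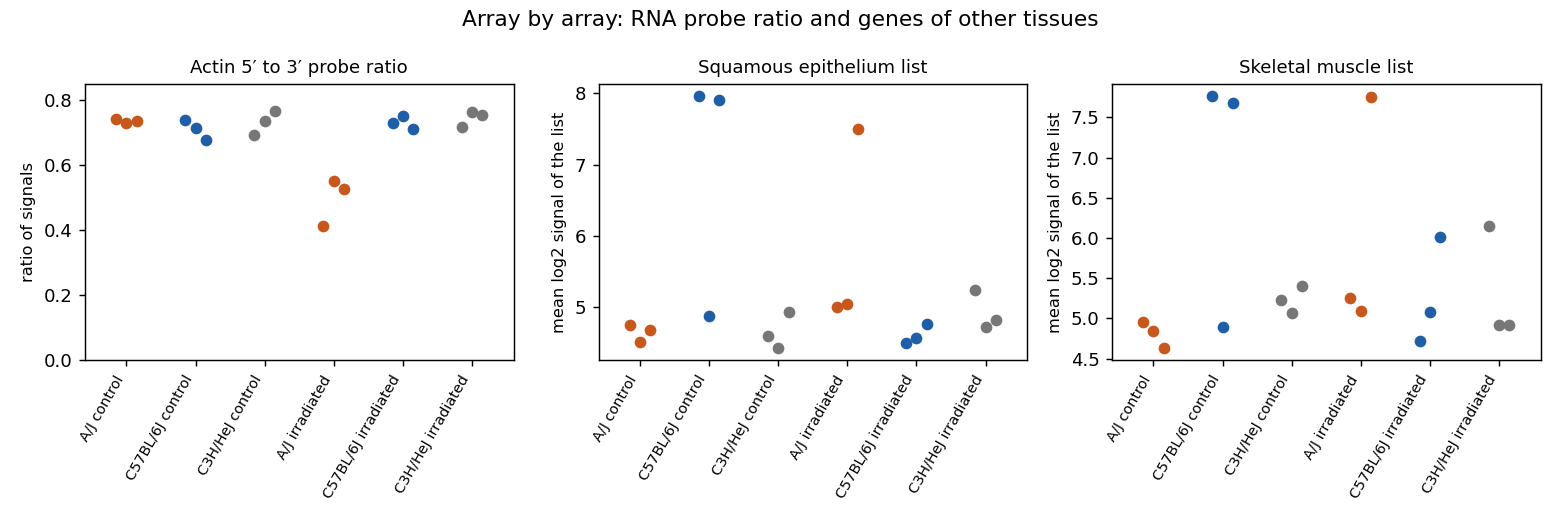
Ratio of the 5′ to the 3′ actin probe set (left) and mean log2 signal of the squamous epithelium and skeletal muscle lists (middle and right) on each of the 18 arrays, one dot per array, by group. The 3 irradiated A/J arrays have ratios of 0.413 to 0.551, below all others, and 1 of them reads high on the squamous and skeletal muscle lists, as do 2 untreated C57BL/6J arrays.

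One irradiated A/J array, number 3, also read high for genes of squamous epithelium and skeletal muscle, and the source of that signal was not tested. Its mean log2 signal over the squamous epithelium list was 7.50, against 5.00 and 5.05 on the other A/J arrays and 4.50 to 4.76 in irradiated C57BL/6J, and over the skeletal muscle list it was 7.75 against 5.26 and 5.10. Untreated C57BL/6J arrays 1 and 3 read 7.96 and 7.90 over the squamous list. Without these 3 arrays 2213 genes were called between the irradiated strains. The deposited signals also differed in overall level, with a trimmed mean of 71.9 to 95.8 in irradiated C57BL/6J and 81.2 to 176.1 in irradiated A/J. Without scaling 3355 genes were called, 187 higher in C57BL/6J and 3168 higher in A/J, around an all-gene median of -0.64. With each array centred on its median 5235 were called, 540 and 4695, around -0.37. Lists are therefore described by counts and by their median relative to that of all genes. List members given as not called, and Ogn, Srgn, Ms4a2 and Ncr1, were picked for mention after their values were seen.

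Many of the genes with the largest differences already separated the untreated strains. Rpgrip1, a protein of the photoreceptor cilium, read 9.61, 9.67 and 9.92 in irradiated C57BL/6J and 4.80, 5.14 and 5.05 in irradiated A/J. Its difference was 4.74 (SE 0.20, adjusted p = 5.38e-10), and in untreated lung it was 4.74 as well. Mndal, a DNA-sensing protein of the interferon-inducible Ifi200 family, read 9.21, 9.45 and 9.17 against 5.43, 5.21 and 4.55, a difference of 4.21 (SE 0.22, adjusted p = 5.87e-09). Zfp945 (3.79), Ang, which encodes the ribonuclease angiogenin (3.34), Trim30d (3.27), Nxpe4 (3.06), Bst1 (2.80) and Pttg1, the securin that holds sister chromatids together (2.79), were higher in irradiated C57BL/6J, each with no overlap of the arrays. Of these 6 genes, all but Bst1 were called in each of the 20 alternative fits, and Bst1 was not called with the actin ratio in the fit. A second probe set of Zfp945 showed 0.21.

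In the other direction, Tmem87a read 8.34, 8.13 and 8.32 in irradiated A/J and 3.88, 3.55 and 3.75 in irradiated C57BL/6J, a difference of -4.54 (SE 0.37, adjusted p = 1.04e-06). Ifi202b, an Ifi200 protein that counters DNA sensing, was at 6.95, 7.42 and 7.80 against 2.89, 3.06 and 2.88, a difference of -4.45 (SE 0.23, adjusted p = 4.70e-09). Gbp2b, a guanylate-binding protein, differed by -3.69 (SE 0.18, adjusted p = 1.97e-09), and Baiap2l1, an organizer of actin at the membrane, by -2.76 (SE 0.09, adjusted p = 1.39e-11). The untreated strains differed in the same direction by -3.59, -3.52, -4.30 and -2.92 for these 4 genes.

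Of 12 measured genes of the known strain alleles list, 4 were higher in irradiated C57BL/6J, 4 were higher in A/J and 4 were not called. The 4 not called were H2-Ea, described with the MHC genes, Oas1b, Ahr and Naip5, with differences of -0.37, -0.20, -0.11 and 0.37. Nnt, the mitochondrial transhydrogenase that carries a deletion in C57BL/6J, differed by -1.43 (SE 0.11, adjusted p = 3.53e-07) in irradiated and by -1.46 in untreated lung. Glo1, a glyoxalase that is duplicated in A/J, differed by -1.70 (SE 0.11, adjusted p = 1.12e-07) and by -1.75. Dysf, the membrane repair protein disrupted in A/J, was higher in C57BL/6J by 1.28 (SE 0.26, adjusted p = 0.00322) and by 1.59. A scale was set by 74 genes that separate the untreated strains by more than 2, where 0 is untreated C57BL/6J and 1 is untreated A/J. On it the irradiated C57BL/6J arrays lay at 0.0321 to 0.0970 and the irradiated A/J arrays at 0.721 to 0.794. The C3H/HeJ arrays, irradiated and untreated, lay at 0.764 to 0.904, so the scale sets C57BL/6J apart and is not particular to A/J.

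Of the 1292 genes called between the untreated strains (10.4% of those tested), 564 were also called between the irradiated strains. These were 43.7% of the untreated calls and 23.4% of the irradiated calls, and the 2 contrasts share no array, although they share the estimate of the spread. Of the 564, 285 were higher in C57BL/6J in both, 242 were higher in A/J in both, and 37 had opposite directions. The test of the difference between the 2 strain differences called 668 genes (5.38%), 304 of them shifted toward C57BL/6J in irradiated lung (2.45%) and 364 toward A/J (2.93%). That test uses the same irradiated arrays as the direct comparison, so its values are given beside the direct ones and are no second line of evidence. It called 351 genes without untreated A/J array 2, 380 without untreated C57BL/6J array 1, 420 without untreated A/J array 1, 437 without irradiated C57BL/6J array 2, and 87 without the 3 arrays with squamous signal.

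**Figure D2:**
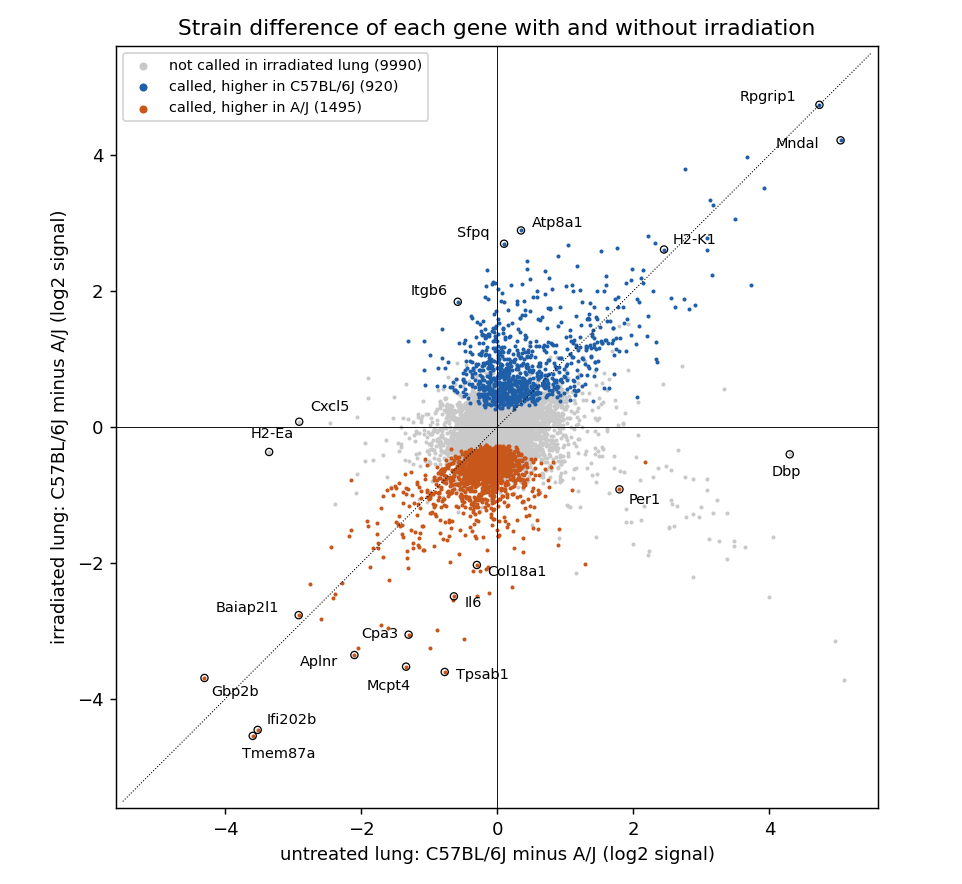
Each point is a gene, with its C57BL/6J minus A/J difference in untreated lung on the x axis and in irradiated lung on the y axis (log2 signal), and the dotted line marks equal differences. Genes such as Rpgrip1, Ifi202b and Gbp2b lie along the line, Cpa3, Mcpt4, Tpsab1, Il6 and Col18a1 lie further below 0 in irradiated than in untreated lung, and Dbp, H2-Ea and Cxcl5 differ mainly in untreated lung. For Il6 the difference between the 2 strain differences was not called.

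Mast cells are tissue-resident cells whose granules hold histamine, the proteases chymase, tryptase and carboxypeptidase A3, and which carry the high-affinity receptor for IgE. Their genes showed the widest difference of any list that was not defined by strain alleles. Of 13 measured members of the mast cells list 9 were higher in irradiated A/J and 1 was higher in C57BL/6J, against 12.1% and 7.42% of all genes. The median was -2.35. The upstream sequences of 3 of the protease genes are shown because these genes carry the difference. They are the 250 bases before the transcription start from RefSeq on GRCm38.p6, 5′ to 3′ on the gene's strand. Capitals mark AGATAA on either strand, a form of the GATA motif that GATA factors of the mast cell lineage recognize. Other forms of the motif were not searched. Cpa3 lies at chr3:20242182-20242431 on the minus strand, Mcpt4 at chr14:56062311-56062560 on the minus strand, and Cma1 at chr14:55944676-55944925 on the minus strand.
Cpa3: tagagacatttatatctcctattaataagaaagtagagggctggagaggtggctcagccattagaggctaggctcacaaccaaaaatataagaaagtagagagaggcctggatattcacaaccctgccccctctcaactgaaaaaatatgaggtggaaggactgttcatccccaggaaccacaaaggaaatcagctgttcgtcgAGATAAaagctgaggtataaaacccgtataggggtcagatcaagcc
Mcpt4: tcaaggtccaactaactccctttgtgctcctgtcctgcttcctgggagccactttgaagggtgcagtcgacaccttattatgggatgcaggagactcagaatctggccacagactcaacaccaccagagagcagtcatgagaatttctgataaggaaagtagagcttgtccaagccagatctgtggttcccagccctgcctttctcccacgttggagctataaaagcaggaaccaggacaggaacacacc
Cma1: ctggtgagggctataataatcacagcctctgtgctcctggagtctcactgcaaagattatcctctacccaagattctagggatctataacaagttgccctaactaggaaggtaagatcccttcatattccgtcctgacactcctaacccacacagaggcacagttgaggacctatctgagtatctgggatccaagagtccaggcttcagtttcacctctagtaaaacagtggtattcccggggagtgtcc

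The Cpa3 window holds 1 match to AGATAA and the windows of Mcpt4 and Cma1 hold none. Related letters, such as TGATAA in the Mcpt4 window and AGATAG on the other strand of the Cma1 window, were not counted. Of the 13 measured genes of the list 10 had an upstream sequence in the table. AGATAA was in 3 of these 10, as it was in 9.99% of all 32851 upstream windows of that length. A match describes letters only.

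Among the granule proteases, Cpa3, the carboxypeptidase, read 9.31, 8.88 and 8.51 in irradiated A/J and 6.50, 5.55 and 5.49 in irradiated C57BL/6J. The lowest A/J array stood 2 units above the highest C57BL/6J array, and the difference was -3.05 (SE 0.47, adjusted p = 0.000336). Tpsb2, a tryptase, read 7.85, 8.18 and 7.77 against 5.42, 4.67 and 3.96, a difference of -3.25 (SE 0.34, adjusted p = 1.21e-05). The second tryptase, Tpsab1, differed by -3.60 (SE 0.34, adjusted p = 3.04e-06). The chymases Mcpt4 and Cma1 differed by -3.52 (SE 0.48) and -3.11 (SE 0.29), with adjusted p of 0.000115 and 3.48e-06. The arrays of the strains did not overlap for any of these 5 genes.

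The IgE receptor showed the same direction. Fcer1a, its ligand-binding chain, read 7.30, 7.09 and 6.56 in irradiated A/J and 5.29, 3.92 and 4.32 in irradiated C57BL/6J, a difference of -2.48 (SE 0.43, adjusted p = 0.000869), and its beta chain Ms4a2 differed by -2.35. The member higher in C57BL/6J was Srgn, the granule proteoglycan of many blood cells, with 0.37. Its value was -0.18 without scaling and was not called there. The other 3 members of the list were not called.

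In untreated lung none of the 13 mast cell genes was called, and the median difference was -0.30. The mean level of Cpa3 was 5.06 in untreated A/J and 3.76 in untreated C57BL/6J, and irradiated C57BL/6J stood at 5.85. In irradiated C3H/HeJ the mean level of Cpa3 was 7.68. The difference between the 2 strain differences was called for 5 members, among them Tpsab1 (-2.83, adjusted p = 0.00424), Cma1 (-2.62, adjusted p = 0.00278) and Tpsb2 (-2.26, adjusted p = 0.0143). In bulk lung RNA, fewer cells of a type and less RNA per cell cannot be told apart. With the actin ratio in the fit 3 of the 9 mast cell genes were called, Tpsab1, Tpsb2 and Cma1, while Cpa3 (-2.15, adjusted p = 0.294), Mcpt4, Fcer1a, Ms4a2 and Srgn were not, and leaving out any single irradiated array left 7 to 9.

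**Figure D3:**
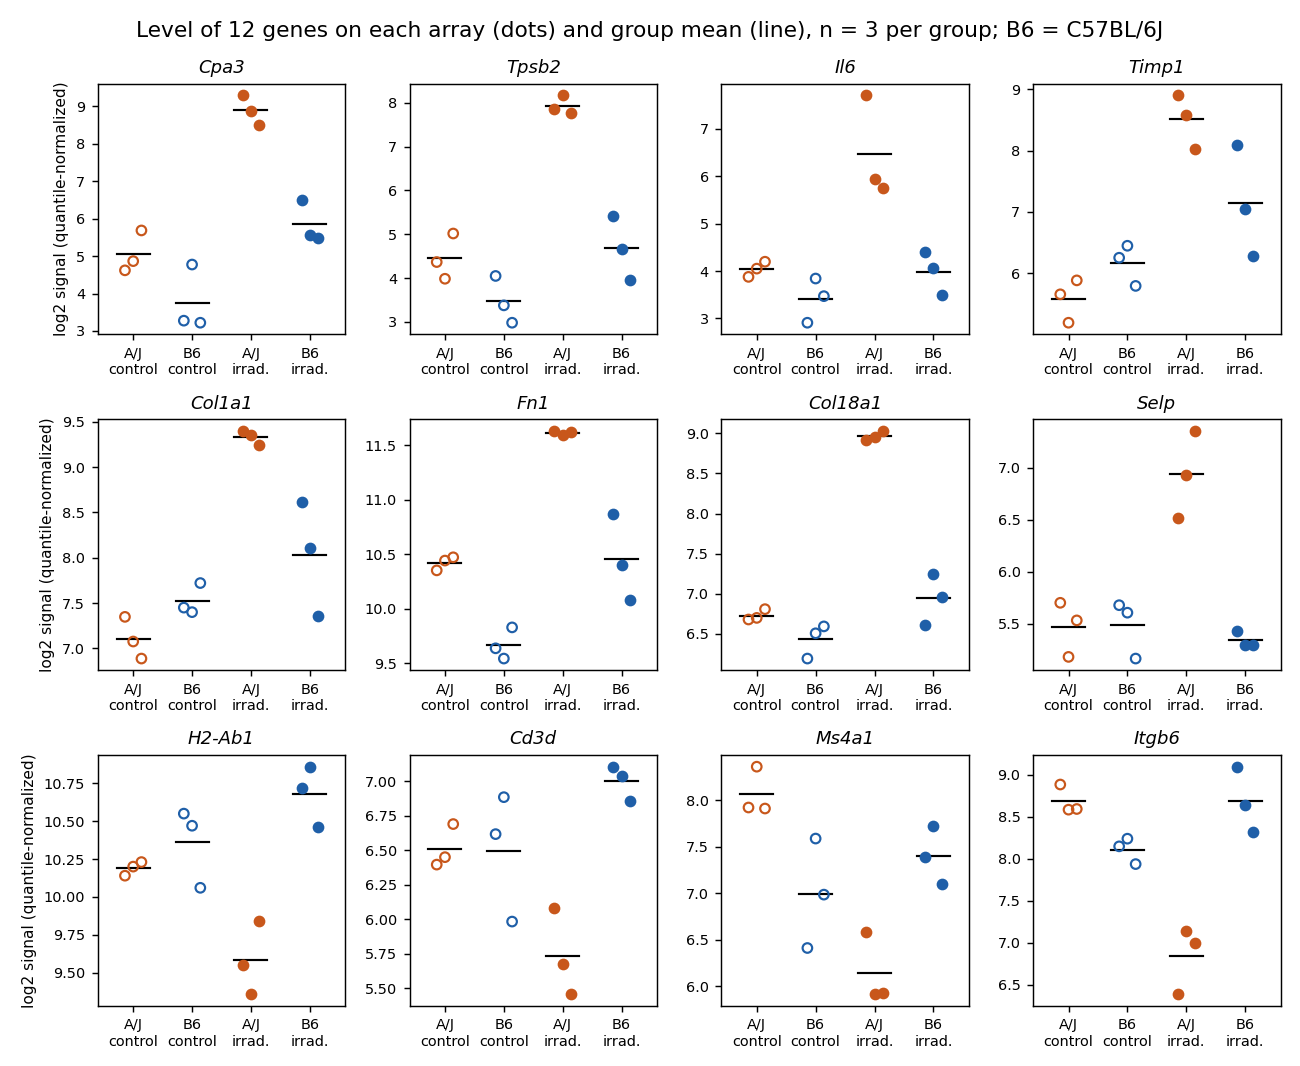
Log2 signal of 12 genes on each array (dots) and the mean of each group (line), for untreated and irradiated A/J and C57BL/6J lung. The mast cell genes Cpa3 and Tpsb2, Il6 and the matrix genes are highest in irradiated A/J, while H2-Ab1, Cd3d, Ms4a1 and Itgb6 are lowest there.

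In each of 4 lists of extracellular matrix genes more members were called higher in irradiated A/J than in C57BL/6J, although most members of each list were not called higher in A/J. Fibrillar collagens form the rope-like fibres of scar, and their crosslinking enzymes stiffen them. Of 16 measured genes of the fibrillar collagens and crosslinking list, 7 were higher in irradiated A/J and 0 in C57BL/6J, with a median of -0.43. Col1a1, the main chain of type I collagen, read 9.40, 9.36 and 9.24 in A/J and 8.62, 8.11 and 7.35 in C57BL/6J. All A/J arrays were above all C57BL/6J arrays, and the difference was -1.31 (SE 0.23, adjusted p = 0.000942). Col5a2, a chain of the type V collagen that seeds fibres, differed by -1.14 (SE 0.25, adjusted p = 0.00554), and Plod1, which hydroxylates collagen lysines, by -0.72 (SE 0.12, adjusted p = 0.000624).

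Col3a1, the type III collagen of soft tissue, read 11.56, 11.61 and 11.47 against 11.36, 10.96 and 10.32, a difference of -0.67 (SE 0.18, adjusted p = 0.0175). Its adjusted p was 0.054 without A/J array 2 and 0.0654 without C57BL/6J array 3, where the difference was -0.39. Col1a2, the partner chain of Col1a1, and the crosslinking enzyme Lox had differences of -0.44 and -0.39 and were not called. Without C57BL/6J array 1 both were, at -0.56 and -0.79 (adjusted p = 0.0366 and 0.0382), while Lox stood at -0.07 without C57BL/6J array 3. Irradiated C57BL/6J array 3 had the lowest level of Col1a1, Col3a1 and Fn1 among the irradiated arrays of both strains. Without it 4 fibrillar collagen genes were called. The calls of Col1a1 (-1.25, adjusted p = 0.22), Col3a1, Col5a2 and Plod1 ended with the actin ratio in the fit.

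In untreated lung 0 of these 16 genes were called, and the untreated mean of Col1a1 was 7.10 in A/J and 7.52 in C57BL/6J. The difference between the 2 strain differences was called for 5 members and in each case toward A/J, with -1.73 for Col1a1 (adjusted p = 0.00645). The mean in irradiated lung was 9.33 ± 0.0817 (SD, n = 3) in A/J, 8.03 ± 0.636 (SD, n = 3) in C57BL/6J and 9.34 in C3H/HeJ.

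Basement membranes are the thin sheets of type IV collagen, laminin, nidogen and perlecan under epithelium and endothelium. Of 19 measured genes of the basement membrane list, 9 were higher in irradiated A/J and 2 in C57BL/6J, with a median of -0.45. Col18a1, the precursor of endostatin, read 8.92, 8.96 and 9.03 in A/J and 6.62, 7.25 and 6.96 in C57BL/6J, a difference of -2.03 (SE 0.19, adjusted p = 2.77e-06). Col15a1, its close relative, differed by -2.11 (SE 0.29, adjusted p = 0.000146). Both were called in every alternative fit, the fit with the actin ratio included. Hspg2, which encodes perlecan, differed by -1.61 (SE 0.24, adjusted p = 0.000300), although its second probe set showed 0.00. Col4a2 differed by -0.87 (SE 0.13, adjusted p = 0.000300). Hspg2, Col4a2 and Col4a6 were not called with the actin ratio in the fit, at -1.37, -0.86 and 1.23 (adjusted p = 0.206, 0.133 and 0.0721).

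Col4a6, a type IV chain of epithelial basement membranes, went the other way, at 5.86, 5.99 and 6.19 in C57BL/6J against 4.60, 4.79 and 4.70 in A/J. Its difference was 1.32 (SE 0.16, adjusted p = 3.49e-05), and it was 1.00 in untreated lung. Within the list the difference between strain differences was called toward A/J for 6 members and toward C57BL/6J for 0, and Col18a1 had a value of -1.73 (adjusted p = 0.0020).

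Matricellular proteins are matrix-bound signals that fibroblasts secrete in repair, and elastic fibres give the lung its recoil. Of 27 measured genes of the matricellular and elastic fibre list, 11 were higher in irradiated A/J and 4 in C57BL/6J, with a median of -0.29. Fn1, fibronectin, read 11.63, 11.59 and 11.62 in A/J and 10.87, 10.40 and 10.08 in C57BL/6J, a difference of -1.16 (SE 0.15, adjusted p = 7.66e-05). Untreated lung also differed for Fn1, by -0.75 (adjusted p = 0.0036). Tnc, the tenascin of healing wounds, read 8.68, 7.69 and 7.59 against 7.0, 5.74 and 5.26 and differed by -1.99 (SE 0.36, adjusted p = 0.00135). Ccn1, an injury-induced growth factor-like protein, differed by -1.60 (SE 0.22, adjusted p = 0.000146) and Cthrc1, a marker of collagen-producing fibroblasts, by -1.52 (SE 0.32, adjusted p = 0.00407).

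Thbs1, the thrombospondin that activates latent TGF-beta, read 10.39, 8.95 and 8.64 against 8.80, 8.04 and 7.59. The groups overlapped, and its difference of -1.18 (SE 0.36, adjusted p = 0.0311) was -0.65 without A/J array 1 (adjusted p = 0.13) and was also not called without C57BL/6J array 2 or 3 (adjusted p = 0.0832 and 0.133). The small proteoglycan Ogn was the list's clearest member in the other direction, at 10.62, 10.88 and 10.92 in C57BL/6J and 9.92, 9.63 and 9.51 in A/J, a difference of 1.12 (SE 0.12, adjusted p = 1.32e-05). Without C57BL/6J array 3 the list had 7 members higher in A/J and 1 higher in C57BL/6J, and without A/J array 2 or 3 or C57BL/6J array 2 it had 2 higher in C57BL/6J. In the fit with the actin ratio 1 member was called in each direction. Tnc then stood at -0.72 (adjusted p = 0.68), Ccn1 at -0.48 (adjusted p = 0.572), Fn1 at -1.03 (adjusted p = 0.119), Cthrc1 at -2.59 (adjusted p = 0.0503) and Thbs1 at 0.82 (adjusted p = 0.501).

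Proteases and their inhibitors remodel the matrix. Of 22 measured genes of the matrix proteases and inhibitors list, 9 were higher in irradiated A/J and 1 in C57BL/6J, with a median of -0.37. Mmp8, the neutrophil collagenase, and Mmp11, a stromal matrix protease, differed by -1.21 (SE 0.21, adjusted p = 0.000979) and -0.90 (SE 0.15, adjusted p = 0.000659). Adam12, a protease of activated fibroblasts, differed by -1.25 (SE 0.25, adjusted p = 0.00256). Timp1, the secreted inhibitor of these proteases, read 8.90, 8.59 and 8.03 in A/J and 8.10, 7.05 and 6.28 in C57BL/6J, with 1 C57BL/6J array inside the A/J range. Its difference of -1.36 (SE 0.35, adjusted p = 0.0130) was -0.93 without C57BL/6J array 3 (adjusted p = 0.0648) and -1.16 without A/J array 1 (adjusted p = 0.0565). Mmp12, the macrophage elastase, read 7.23, 8.77 and 8.95 in A/J and 9.06, 8.01 and 6.70 in C57BL/6J and was not called, with a difference of -0.39. Without C57BL/6J array 3 its difference was 0.22. The list had 1 member higher in A/J and 0 in C57BL/6J with the actin ratio in the fit, where Adam12 stood at -0.67 (adjusted p = 0.571), Timp1 at -1.17 (adjusted p = 0.49), Mmp8 at -1.24 (adjusted p = 0.187) and Mmp11 at -0.79 (adjusted p = 0.233).

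Genes of the fibroblast and contractile list were called higher in A/J for 5 of 21 measured members and higher in C57BL/6J for 0, with a median of -0.23. Des, the muscle filament desmin, differed by -0.92 (SE 0.20, adjusted p = 0.00476) and Pdgfb, a growth factor for fibroblasts and pericytes, by -0.74 (SE 0.15, adjusted p = 0.00341). Acta2, the smooth muscle actin that marks myofibroblasts, read 10.86, 10.52 and 10.45 in A/J and 10.03, 10.01 and 10.44 in C57BL/6J. Its difference of -0.45 (SE 0.14, adjusted p = 0.0392) was called in 11 of 20 alternative fits. It was not called without A/J array 1 (-0.33, adjusted p = 0.154), A/J array 2 (adjusted p = 0.0579), C57BL/6J array 1 (adjusted p = 0.119) or C57BL/6J array 2 (adjusted p = 0.136). The 5 calls of the list became 3 without A/J array 1 or C57BL/6J array 2 and 0 with the actin ratio in the fit, where Des stood at -0.18, Pdgfb at -0.01 and Acta2 at 0.09 (adjusted p = 0.87, 0.986 and 0.912).

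Both of the first matrix lists lay below the median of all genes under each of 3 scalings. Relative to all genes the fibrillar collagens and crosslinking list stood at -0.33 with quantile scaling, -0.37 without scaling and -0.37 with median centring, and the basement membrane list at -0.35, -0.44 and -0.44. With the actin ratio in the fit these values were -0.30 and -0.27, while the calls toward A/J were 0 fibrillar collagen genes and 4 basement membrane genes.

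**Figure D4:**
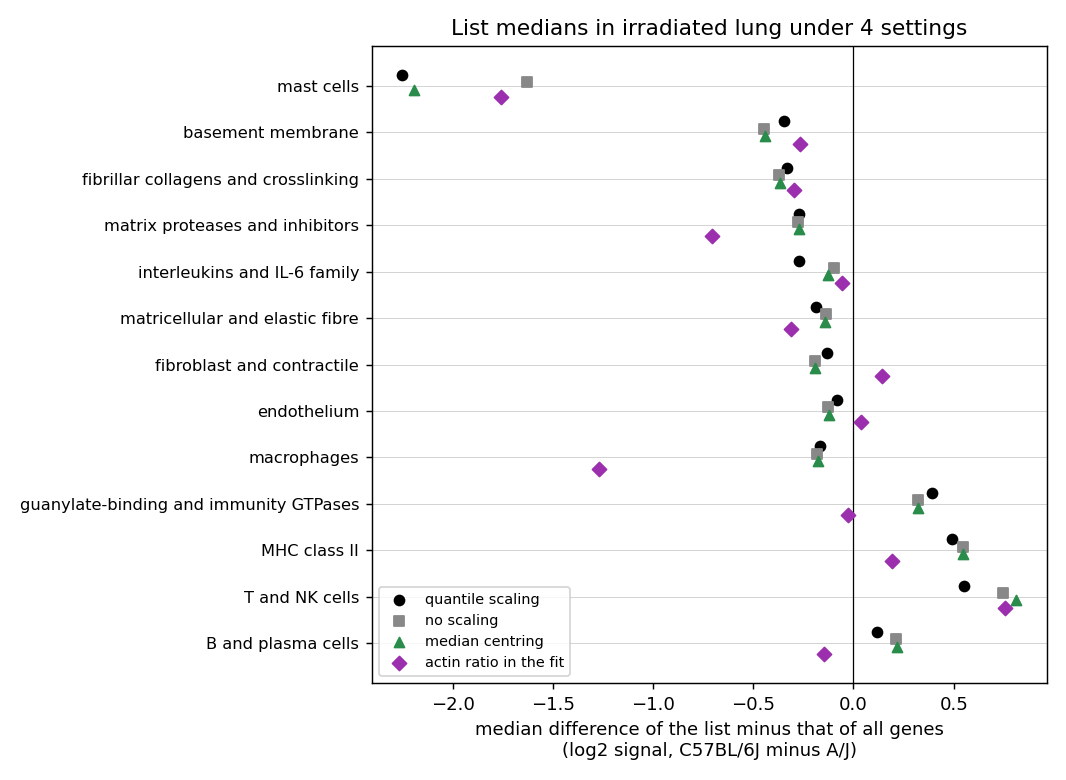
Median C57BL/6J minus A/J difference of each list minus that of all genes (x axis, log2 signal) in irradiated lung, with quantile scaling, no scaling, median centring and with the actin ratio in the fit. The mast cell and matrix lists stay below 0 in all 4 settings, the MHC class II and T and NK cells lists stay above 0, and the fibroblast and contractile, endothelium, guanylate-binding and immunity GTPases, and B and plasma cells lists cross 0 with the actin ratio in the fit.

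TGF-beta is the main inducer of matrix genes in fibroblasts, and the related BMPs act on the vessel wall through their own receptors and Id proteins. Of 27 measured genes of the TGF-beta and BMP signalling list, 7 were higher in irradiated A/J and 2 in C57BL/6J, and the median was 0.01. Among ligands, Tgfb1 itself was not called, at 6.42, 7.29 and 7.81 in A/J and 7.83, 7.80 and 7.50 in C57BL/6J, a difference of 0.54 that was -0.05 without scaling and -0.54 with the actin ratio in the fit. Over single arrays left out it ranged from 0.17 without A/J array 1 to 0.86 without A/J array 3, where it was called (adjusted p = 0.0208). A second probe set of Tgfb1 differed by -0.53 and passed the test over all probe sets (adjusted p = 0.0361). Bmp4 read 8.16, 9.02 and 8.59 in A/J and 7.45, 7.72 and 7.42 in C57BL/6J. Its difference was -1.06 (SE 0.20, adjusted p = 0.00211) and was -0.78 in untreated lung (adjusted p = 0.022). The target Id3 differed by -0.85 (SE 0.12, adjusted p = 0.000237), and the difference between strain differences was -0.96 for it (adjusted p = 0.0062).

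Among receptors and activators, Itgb6, the epithelial integrin chain that releases active TGF-beta, read 9.09, 8.64 and 8.32 in C57BL/6J and 6.387, 7.144 and 6.998 in A/J. Its difference was 1.84 (SE 0.24, adjusted p = 7.37e-05) in irradiated lung and -0.58 in untreated lung (adjusted p = 0.15), and the difference between the 2 was 2.42 (adjusted p = 0.0011). The untreated means were 8.69 in A/J and 8.11 in C57BL/6J. A second probe set of Itgb6 differed by 1.10. Acvrl1, the endothelial receptor ALK1, read 8.53, 9.26 and 9.15 in C57BL/6J and 7.99, 6.88 and 7.25 in A/J, a difference of 1.61 (SE 0.27, adjusted p = 0.000768). Its second probe set differed by 0.51 and did not pass. Without A/J array 2 or 3 the list had 4 members called higher in A/J, and without A/J array 3 it had 4 higher in C57BL/6J. The fit with the actin ratio called 1 member in each direction. There Itgb6 stood at 0.88 (adjusted p = 0.336) and Id3 at -0.96 (adjusted p = 0.0751), both not called, while Bmp4 and Acvrl1 kept their calls at -1.68 and 2.74.

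Cytokines of the IL-6 family drive the acute response of injured tissue. Of 23 measured genes of the interleukins and IL-6 family list, 6 were higher in irradiated A/J and 2 in C57BL/6J, with a median of -0.37. Il6 read 7.72, 5.95 and 5.75 in A/J and 4.40, 4.06 and 3.50 in C57BL/6J. The arrays did not overlap, and the difference was -2.49 (SE 0.41, adjusted p = 0.000653). The untreated means were 4.04 and 3.41. Within the list the difference between strain differences was called toward A/J for 0 members, so not for Il6, and toward C57BL/6J for 1. In irradiated C3H/HeJ the mean of Il6 was 7.67. Il6ra, the ligand-binding receptor chain, differed in the other direction, by 1.16 (SE 0.19, adjusted p = 0.000491), with A/J at 5.23, 5.80 and 5.41 and C57BL/6J at 6.68, 6.70 and 6.56. With A/J array 1, C57BL/6J array 2 or C57BL/6J array 3 left out, 3 members of the list were called higher in A/J. With the actin ratio in the fit 2 were, and neither Il6, at -0.72 (SE 0.78, adjusted p = 0.704), nor Il6ra, at 0.89 (adjusted p = 0.278), was called.

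Chemokines, the peptides that attract leukocytes, had no common direction. Of 16 measured CC chemokines 2 were higher in A/J and 2 in C57BL/6J, with a median of -0.19. Ccl5, made by T and natural killer cells, read 8.46, 8.00 and 8.05 in C57BL/6J and 6.36, 6.23 and 7.37 in A/J, a difference of 1.52 (SE 0.36, adjusted p = 0.00881). Of 13 measured CXC chemokines 2 were higher in A/J and 1 in C57BL/6J. That 1 was the platelet chemokine Ppbp, at 8.59, 10.31 and 9.69 against 7.15, 7.56 and 5.75, a difference of 2.71 (SE 0.43, adjusted p = 0.000484) that was 2.32 in untreated lung (adjusted p = 0.0022). Cxcl5, the epithelial attractant of neutrophils, was at 4.02, 4.23 and 3.78 in irradiated A/J and 4.49, 3.75 and 4.03 in irradiated C57BL/6J, and with overlapping arrays it was not called. Untreated A/J arrays had read 5.41, 5.91 and 6.57, and untreated C57BL/6J arrays 3.13, 2.83 and 3.21. Ccl5 (1.18, adjusted p = 0.504) and Ppbp (3.29, adjusted p = 0.0819) lost their calls with the actin ratio in the fit.

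Lymphocyte genes were more often called higher in C57BL/6J than in A/J, although most members of both lymphocyte lists were not called. T cells recognize antigen through the CD3 complex, and cytotoxic T cells and natural killer cells kill with granzymes. Of 27 measured genes of the T and NK cells list, 9 were higher in irradiated C57BL/6J and 2 in A/J, with a median of 0.45. Cd3d, a CD3 chain, read 7.11, 7.04 and 6.86 in C57BL/6J and 6.08, 5.68 and 5.46 in A/J, a difference of 1.26 (SE 0.21, adjusted p = 0.000659). Cd8b1, the CD8 beta chain, differed by 1.33 (SE 0.32, adjusted p = 0.00893), Gzmk, a granzyme of memory T cells, by 1.75 (SE 0.33, adjusted p = 0.00154) and Klrd1, the natural killer receptor CD94, by 1.14 (SE 0.26, adjusted p = 0.00652). One of the 2 members higher in A/J was the natural killer receptor Ncr1, by -0.90. The other 16 members were not called.

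Untreated lung had 1 called member of this list, Ncr1, higher in A/J by -1.55, and its median was -0.06. For Cd3d the untreated means were 6.51 in A/J and 6.50 in C57BL/6J. The difference between strain differences was called for 5 members, each toward C57BL/6J, with 1.28 for Cd3d (adjusted p = 0.021). Without scaling 4 members were called higher in C57BL/6J, and with the actin ratio in the fit 1 was. Cd3d, Cd8b1, Gzmk, Klrd1 and Ncr1 were not called in the latter, at 1.61, 1.94, 2.28, 0.95 and -0.36 (adjusted p = 0.0755, 0.164, 0.109, 0.439 and 0.742). The list's median relative to all genes was 0.55 with quantile scaling, 0.75 without scaling and 0.76 with the actin ratio.

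B cells carry the antigen receptor with its CD79 chains and mature into antibody-secreting plasma cells. Of 20 measured genes of the B and plasma cells list, 5 were higher in irradiated C57BL/6J and 0 in A/J, with a median of 0.02. Ms4a1, the CD20 antigen, read 7.39, 7.72 and 7.09 in C57BL/6J and 6.58, 5.91 and 5.92 in A/J, a difference of 1.26 (SE 0.31, adjusted p = 0.0106). In untreated lung Ms4a1 was higher in A/J, by -1.07 (adjusted p = 0.040), as were 8 other members of the list, and 0 were higher in C57BL/6J. Ms4a1 and Cd79a, an antigen receptor chain, were among the 37 genes called in opposite directions, Cd79a with 0.87 in irradiated and -0.87 in untreated lung. Cd79a was not called without A/J array 1, 2 or 3 or C57BL/6J array 2, with adjusted p of 0.0607, 0.0846, 0.0572 and 0.135.

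Ighm, the heavy chain of IgM, read 12.76, 12.46 and 12.43 in C57BL/6J and 10.46, 10.98 and 11.37 in A/J, a difference of 1.61 (SE 0.36, adjusted p = 0.00605) for its brightest probe set. Its other probe sets ranged from -2.19 to 7.71, so no single value stands for the gene. Plasma cell genes were not called: Jchain, which joins antibody units, showed -0.49, Xbp1, the secretory regulator, -0.19 and Igha, the IgA heavy chain, -0.48. Without scaling the B and plasma cells list had 1 member higher in C57BL/6J and 4 in A/J, without A/J array 2 or 3 or C57BL/6J array 2 it had 2 higher in C57BL/6J, and without C57BL/6J array 1 or 3 it had 3. With the actin ratio in the fit 0 members were called, the list's median relative to all genes was -0.15, and Ms4a1, Cd79a and Ighm stood at 1.97, 0.41 and 0.83 (adjusted p = 0.144, 0.788 and 0.654).

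MHC class II molecules present antigen to helper T cells and are made by B cells, dendritic cells and activated macrophages. The upstream windows of H2-Aa and H2-Eb1 are shown because one of these class II genes was called and the other was not. Capitals mark ATTGG on either strand, the core of the Y box of class II promoters. H2-Aa lies at chr17:34287824-34288073 on the minus strand and H2-Eb1 at chr17:34305617-34305866 on the plus strand (RefSeq, GRCm38.p6).
H2-Aa: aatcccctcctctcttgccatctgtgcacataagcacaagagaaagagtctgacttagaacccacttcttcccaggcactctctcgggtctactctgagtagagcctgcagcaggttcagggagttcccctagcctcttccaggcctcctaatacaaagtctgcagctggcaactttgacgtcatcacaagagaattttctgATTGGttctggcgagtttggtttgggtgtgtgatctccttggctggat
H2-Eb1: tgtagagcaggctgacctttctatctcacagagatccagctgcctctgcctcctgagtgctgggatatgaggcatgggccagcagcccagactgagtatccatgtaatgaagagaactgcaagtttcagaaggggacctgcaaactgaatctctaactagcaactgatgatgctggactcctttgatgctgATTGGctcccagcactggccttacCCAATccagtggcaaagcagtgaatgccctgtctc

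Of 10 measured class II genes 6 had an upstream sequence and 5 of these held ATTGG, as did 33.8% of all windows. Of the 10 genes of the MHC class II list, 4 were higher in irradiated C57BL/6J and 0 in A/J, with a median of 0.39. H2-Ab1 read 10.72, 10.86 and 10.46 in C57BL/6J and 9.55, 9.36 and 9.84 in A/J, a difference of 1.10 (SE 0.15, adjusted p = 0.000123). H2-Aa, its partner chain, read 11.97, 11.86 and 11.75 against 10.91, 11.49 and 11.42, a difference of 0.59 (SE 0.13, adjusted p = 0.00431). Its other probe sets showed 0.83, 3.02 and -0.43. H2-Eb1, a beta chain, differed by 0.28 and was not called, and its value was -0.27 without scaling.

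On the probe sets used for the genes, H2-Ab1 and H2-Aa differed in untreated lung by 0.17 and 0.08 and were not called. On every other probe set of both, the untreated arrays of the strains did not overlap. The H2-Aa probe set at 3.02 read 4.18, 4.19 and 4.63 in untreated A/J and 7.56, 7.61 and 7.23 in untreated C57BL/6J. The H2-Aa probe set at 0.83 and those of H2-Ab1 at 2.53 and 2.50 were also higher in untreated C57BL/6J. The H2-Aa probe set at -0.43 was higher in untreated A/J. Without scaling 0 members were called, with median centring 1, and with the actin ratio 0, where H2-Ab1 stood at 0.88 (adjusted p = 0.178) and H2-Aa at -0.12 (adjusted p = 0.81). Leaving out A/J array 3 or C57BL/6J array 2 left 2. The list's median relative to all genes was 0.49 with quantile scaling, 0.55 without scaling and 0.19 with the actin ratio.

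H2-Ea, a class II chain that C57BL/6J mice do not express because of a promoter deletion, is a member whose level depended on the probe set. On the probe set used for the gene, untreated A/J read 7.57, 6.87 and 6.90, and irradiated A/J read 3.62, 4.05 and 4.29, while irradiated C57BL/6J read 3.57, 3.43 and 3.85. The irradiated strains differed by -0.37 there and the gene was not called, while irradiated C3H/HeJ stood at 6.62. On the second probe set untreated A/J read 6.84, 6.64 and 6.28 and irradiated A/J 4.75, 5.10 and 5.24, against 3.55, 3.15 and 2.96 in irradiated C57BL/6J. There the strain difference was -1.81 (SE 0.25) and passed the test over all probe sets (adjusted p = 8.62e-05).

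Class I genes present peptides to CD8 T cells. Of 15 measured genes of the MHC class I and antigen processing list, 4 were higher in irradiated C57BL/6J and 0 in A/J. H2-K1 read 12.18, 12.17 and 12.05 in C57BL/6J and 9.56, 9.38 and 9.64 in A/J, a difference of 2.61 (SE 0.10, adjusted p = 1.25e-10) that was 2.45 in untreated lung. Its other probe sets showed 1.73, 0.39 and 0.00. Tap1, the peptide transporter, differed by 1.03 (SE 0.16, adjusted p = 0.000383). It was not called with the actin ratio in the fit (0.92, adjusted p = 0.195).

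Most genes of the interferon response list were not called. The interferon-inducible gene Ifi44l is not on that list and was higher in irradiated A/J. Its probe sets differed by -2.91 and -2.82, and both passed the test over all probe sets (adjusted p = 1.97e-05 and 5.46e-05). Of 28 measured genes of the interferon response list, 3 were higher in irradiated C57BL/6J and 0 in A/J, with a median of 0.22. Trim30a, an inhibitor of inflammatory signalling, read 9.06, 9.19 and 8.86 in C57BL/6J and 6.57, 7.64 and 7.92 in A/J, a difference of 1.66 (SE 0.24, adjusted p = 0.000207). The second probe set of Trim30a showed 0.14 and did not pass (adjusted p = 0.476). Ifit3 differed by 0.78 (SE 0.16, adjusted p = 0.00385). In the fit with the actin ratio Trim30a stood at 0.31 (adjusted p = 0.734) and Ifit3 at 0.52 (adjusted p = 0.497), and 0 members of the list were called. Without single arrays the list had 2 to 8 members higher in C57BL/6J, 2 without A/J array 1 or C57BL/6J array 2.

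Guanylate-binding and immunity GTPases attack microbes inside cells. Of 10 measured genes of that list, 3 were higher in irradiated C57BL/6J and 0 in A/J. Gbp2b, given above as a guanylate-binding protein higher in A/J (-3.69), is not on the list. Irgm2 read 7.97, 7.99 and 7.77 in C57BL/6J and 6.92, 7.04 and 7.44 in A/J, a difference of 0.77 (SE 0.17, adjusted p = 0.00508). In untreated lung 4 members were higher in A/J and 0 in C57BL/6J, with a median of -0.52. The difference between strain differences was called for 5 members, each toward C57BL/6J, and was 1.14 for Irgm2 (adjusted p = 0.012). Without A/J array 2 the direct comparison called 1 member, and without scaling or with the actin ratio 0, where Irgm2 stood at 0.16 and 0.35.

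The Ifi200 cluster split by strain. Of 7 measured genes, 3 were higher in irradiated C57BL/6J and 2 in A/J. Mndal and Ifi202b, given above, stood at the ends, and Ifi213 read 6.13, 6.65 and 6.53 in C57BL/6J against 5.13, 4.80 and 4.12 in A/J, a difference of 1.76 (SE 0.23, adjusted p = 8.62e-05).

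Endothelial cells line the capillaries that fill most of the alveolar wall. Of 46 measured genes of the endothelium list, 15 were higher in irradiated A/J and 4 in C57BL/6J, with a median of -0.18. Aplnr, the apelin receptor of capillary and venous cells, read 8.48, 9.86 and 9.86 in A/J and 5.51, 6.95 and 5.69 in C57BL/6J. Its difference was -3.35 (SE 0.37, adjusted p = 1.72e-05) and was -2.10 in untreated lung, where A/J averaged 10.96 and C57BL/6J 8.87. Selp, the P-selectin that lets leukocytes roll, read 6.52, 6.93 and 7.35 in A/J and 5.43, 5.30 and 5.30 in C57BL/6J, a difference of -1.59 (SE 0.19, adjusted p = 3.88e-05). For Selp the untreated difference was 0.01, and the difference between strain differences was -1.61 (adjusted p = 0.0044). Sele, the inducible E-selectin, differed by -1.59 (SE 0.35, adjusted p = 0.00552).

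Hpgd, the prostaglandin-degrading enzyme of lung capillaries, read 9.90, 10.61 and 10.87 in C57BL/6J and 9.81, 8.00 and 7.67 in A/J, a difference of 1.97 (SE 0.40, adjusted p = 0.00290). The untreated strains had 11.59 and 11.52. Lyve1, the hyaluronan receptor of lymphatic vessels, was higher in C57BL/6J by 1.62 (SE 0.28, adjusted p = 0.000794) in irradiated and by 1.45 in untreated lung. Pecam1, the pan-endothelial adhesion molecule, was not called, at 10.07, 9.83 and 9.83 in A/J and 9.44, 10.14 and 9.91 in C57BL/6J. Without A/J array 2 the endothelium list had 10 members higher in A/J, and without A/J array 1 it had 10 higher in C57BL/6J in place of 4. With the actin ratio in the fit it had 7 higher in A/J and 8 in C57BL/6J. Aplnr, Selp, Hpgd and Lyve1 were called there at -5.20, -2.54, 4.31 and 2.96, and Sele was not, at -2.78 (adjusted p = 0.0531).

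Macrophage genes were called in both directions. Of 34 measured genes of the macrophages list, 5 were higher in irradiated A/J and 2 in C57BL/6J, with a median of -0.27. These counts are close to the shares of all genes, 12.1% and 7.42%. Lyve1, given above as a gene of lymphatic vessels, was 1 of the 2. Marco, a scavenger receptor, read 5.25, 8.21 and 7.55 in A/J and 5.55, 3.55 and 2.98 in C57BL/6J. A/J array 1 overlapped the C57BL/6J arrays, and the difference was -2.98 (SE 0.70, adjusted p = 0.00781). Vsig4, a complement receptor of resident macrophages, differed by -1.25 (SE 0.28, adjusted p = 0.00541). Adgre1, the F4/80 antigen of macrophages, was not called, at -0.32, nor was Arg1, an arginine-degrading enzyme of alternatively activated macrophages, at 1.49. Arg1 stood at 0.11 without C57BL/6J array 1, and Adgre1 was called without A/J array 1, at -0.61 (adjusted p = 0.0404). The actin ratio in the fit left Marco called, at -6.22, and Vsig4 not called, at -2.09 (adjusted p = 0.0648). Leaving out C57BL/6J array 3 or A/J array 2 left 2 members higher in A/J, while without A/J array 1 it was 9 and without C57BL/6J array 1 it was 11.

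Among 13 measured genes of dendritic cells 3 were higher in A/J and 1 in C57BL/6J. The lectins Cd209d and Cd209a differed by -1.75 (SE 0.25, adjusted p = 0.000207) and -1.01 (SE 0.20, adjusted p = 0.00252), and untreated lung had -0.93 and -0.72 for them. Neutrophil genes gave 3 of 14 higher in C57BL/6J and 1 in A/J, with a median of 0.26. The 1 higher in A/J was Mmp8 (-1.21), the neutrophil collagenase given above with the matrix proteases. Cxcr2, the receptor that draws neutrophils, read 4.85, 5.05 and 5.67 in C57BL/6J and 3.23, 3.95 and 3.08 in A/J, a difference of 1.77 (SE 0.31, adjusted p = 0.00104). S100a8, a calprotectin subunit, read 10.52, 10.35 and 10.74 against 10.05, 9.85 and 8.62, a difference of 1.03 (SE 0.27, adjusted p = 0.0140) with an adjusted p of 0.0562 without C57BL/6J array 3 and a difference of 0.58 without A/J array 3. Its partner S100a9 showed 1.21 and was not called (adjusted p = 0.0505). It was called in 7 of 20 alternative fits, among them those without A/J array 1 (1.87, adjusted p = 0.000371), with array weights (1.58, adjusted p = 0.001) and with the actin ratio (3.53, adjusted p = 0.00904), and it was 0.67 without A/J array 3. The actin ratio ended the calls of Cd209d (-1.65), Cd209a (-1.11), Cxcr2 (1.22) and S100a8 (1.84), with adjusted p of 0.147, 0.215, 0.385 and 0.0941.

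Plasma protein and complement lists showed few calls. Cd59a, which blocks the membrane attack complex, read 7.38, 7.50 and 7.58 in A/J and 6.47, 6.46 and 6.17 in C57BL/6J, a difference of -1.11 (SE 0.14, adjusted p = 4.74e-05), and it was 1 of 3 called among 19 complement genes. Of 14 genes of the acute phase and fibrinogen list 2 were higher in each strain. Itih4, an acute phase inhibitor chain, was higher in C57BL/6J by 1.28 (SE 0.24, adjusted p = 0.00168) and stood at 0.24 with the actin ratio in the fit (adjusted p = 0.84). Saa3, an acute phase protein of the inflamed lung, read 7.97, 8.27 and 8.31 in A/J and 9.51, 8.19 and 7.76 in C57BL/6J and was not called.

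**Figure D5:**
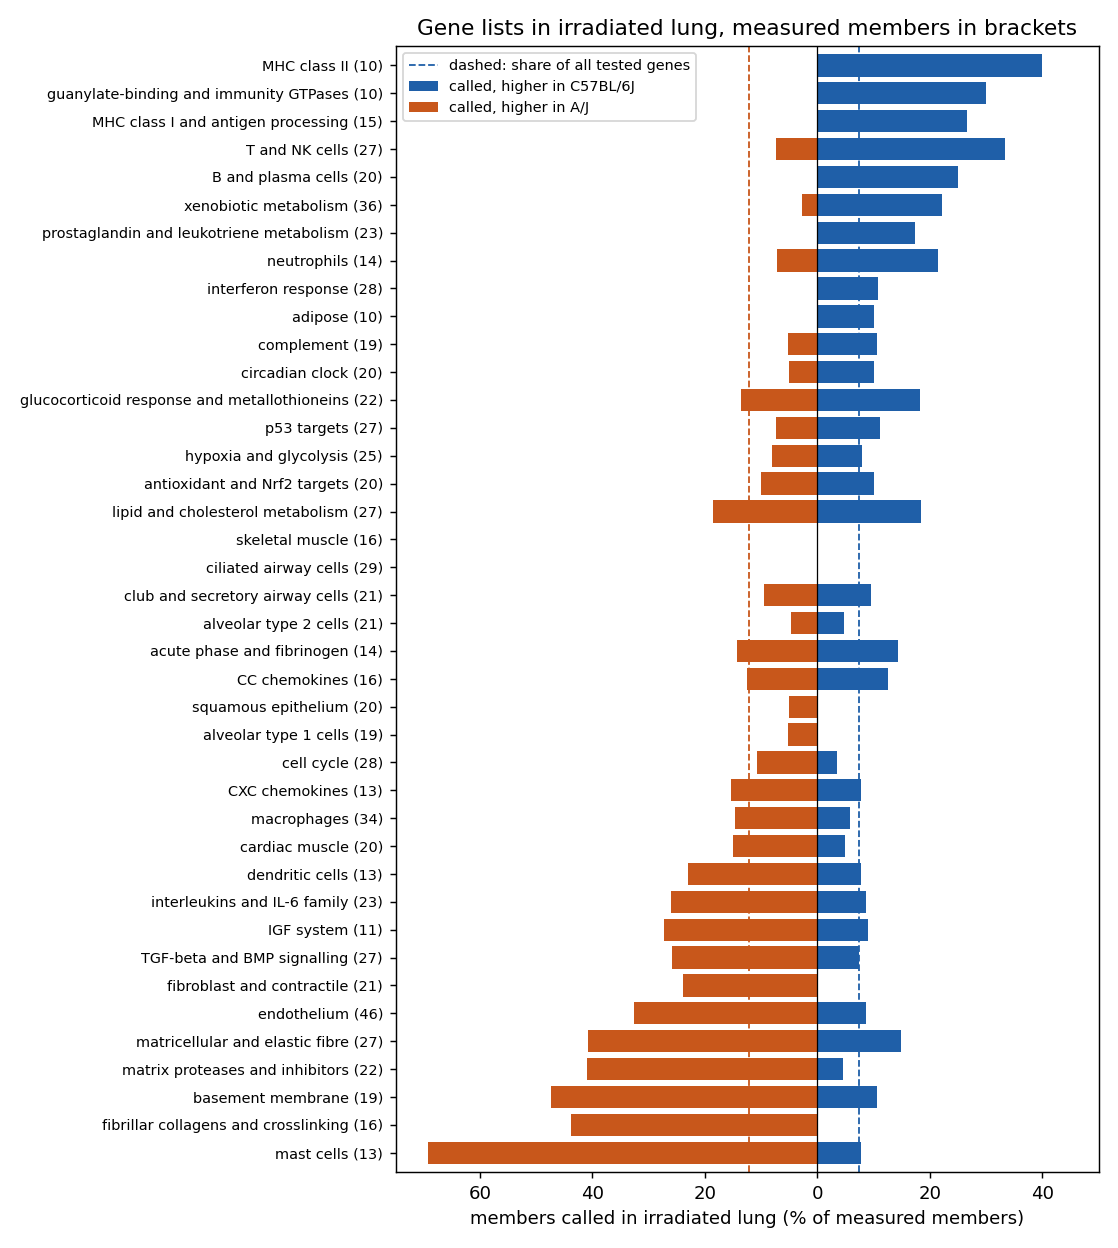
Percent of the measured members of each list that were called in irradiated lung, higher in C57BL/6J to the right and higher in A/J to the left, with the share of all tested genes as dashed lines (7.42% and 12.1%). Of the lists plotted, the mast cell and matrix lists extend furthest toward A/J, and the MHC class II, T and NK cells, and guanylate-binding and immunity GTPases lists furthest toward C57BL/6J. The Ifi200 cluster and the known strain alleles, with 3 of 7 and 4 of 12 members higher in C57BL/6J, are not plotted.

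Few genes of the epithelium lists were called between the irradiated strains. None of 29 measured ciliated airway cell genes passed the limma test at the adjusted threshold, and the median was 0.03. Of 21 alveolar type 2 genes 1 was higher in each strain. Without A/J array 1, 6 were higher in A/J, and with median centring 9 were. Abca3, the lipid pump of surfactant bodies, was higher in A/J by -0.88 (SE 0.14, adjusted p = 0.000582) and was -0.82 in untreated lung. Sftpa1, a surfactant protein, showed -0.08 and was not called. Of 19 alveolar type 1 genes 1, the water channel Aqp5, was called, at -0.57 (SE 0.12, adjusted p = 0.00515), while the type 1 marker Ager showed -0.17. Of the type 1 genes 4 were higher in A/J without A/J array 3, and 3 ciliated genes were higher in C57BL/6J without A/J array 1. Among 21 club and secretory airway genes, Agr2, a chaperone of mucin-making cells, differed by -1.40 (SE 0.28, adjusted p = 0.00270) and Gsta3, a glutathione transferase, by 0.95 (SE 0.13, adjusted p = 9.32e-05). Muc4, a membrane mucin, was higher in C57BL/6J by 2.63 (SE 0.20, adjusted p = 3.53e-07), with -0.56 on a second probe set. Aqp5 (-0.14, adjusted p = 0.836) and Agr2 (-0.38, adjusted p = 0.795) lost their calls with the actin ratio in the fit.

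The squamous epithelium and skeletal muscle lists had medians of -1.05 and -0.94, and A/J array 3 was the highest irradiated array of both lists. Krt4, a keratin of stratified epithelium, read 5.54, 5.72 and 10.91 in irradiated A/J and 3.36, 3.06 and 4.59 in irradiated C57BL/6J. It was not called and stood at -1.96 without A/J array 3, and 0 of 16 skeletal muscle genes were. Of 20 cardiac muscle genes 3 were higher in A/J and 1 in C57BL/6J. Myh7, the slow myosin heavy chain, read 8.02, 8.21 and 8.11 against 5.15, 5.37 and 5.37, a difference of -2.82 (SE 0.20, adjusted p = 1.55e-07) that was -2.58 in untreated lung.

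The circadian clock is a feedback loop in which Arntl and Npas2 or Clock drive the Per, Cry, Dbp and Nr1d genes, and its RNAs rise and fall over the day. The labels do not give the hour of sacrifice. Of 20 measured clock genes 2 were higher in irradiated C57BL/6J and 1 in A/J, with a median of 0.10. In untreated lung 14 were higher in C57BL/6J and 4 in A/J. Dbp, a clock output, read 8.83, 9.04 and 9.11 in irradiated A/J and 8.11, 8.92 and 8.76 in irradiated C57BL/6J, which was not called, whereas untreated A/J read 5.68, 5.45 and 5.25 and untreated C57BL/6J 9.76, 9.62 and 9.90. The difference between strain differences was called for 16 of the 20, 5 positive and 11 negative. The irradiated difference in Dbp was -0.40, with overlapping arrays, and the untreated difference was 4.30.

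Per1 was higher in irradiated A/J by -0.91 (SE 0.16, adjusted p = 0.000934) and higher in untreated C57BL/6J by 1.80. Rora, a nuclear receptor that activates Arntl, read 7.92, 8.04 and 7.97 in irradiated C57BL/6J and 6.32, 6.15 and 6.19 in irradiated A/J, a difference of 1.75 (SE 0.18, adjusted p = 7.44e-06), with other probe sets between -0.37 and 1.54. Genes of the glucocorticoid response and metallothioneins list were called higher in C57BL/6J for 4 and in A/J for 3 of 22 members, against 11 and 2 in untreated lung. Sgk1, a kinase induced by glucocorticoids, differed by -0.83 (SE 0.17, adjusted p = 0.00297). Per1 (-0.74, adjusted p = 0.288) and Sgk1 (-1.34, adjusted p = 0.0542) were not called with the actin ratio in the fit.

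Metabolic and stress lists had calls in both directions. Of 36 xenobiotic metabolism genes 8 were higher in C57BL/6J and 1 in A/J. Cyp2e1, a cytochrome P450, read 8.76, 8.41 and 8.92 in C57BL/6J and 7.11, 7.53 and 7.34 in A/J, a difference of 1.37 (SE 0.20, adjusted p = 0.000185) that was 1.39 in untreated lung. Without C57BL/6J array 3, 4 of these genes were higher in C57BL/6J, without A/J array 3, 5 were, and without scaling 0 were. Gclc and Gclm, the subunits of the enzyme that makes glutathione, were both higher in C57BL/6J, by 1.37 (SE 0.12, adjusted p = 2.29e-06) and 0.91 (SE 0.13, adjusted p = 0.000229). Gclc read 11.10, 11.00 and 11.12 in C57BL/6J and 9.54, 9.81 and 9.76 in A/J, and the untreated means were 10.47 and 10.69. Hmox1, the haem oxygenase, went the other way, by -1.36 (SE 0.33, adjusted p = 0.00943), with overlapping arrays and an adjusted p of 0.0513 without the 3 arrays with squamous signal. Hmox1 and Gclc were called with the actin ratio in the fit, at -2.97 and 1.14, and Gclm (0.65) and Cyp2e1 (1.21) were not (adjusted p = 0.253 and 0.164).

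Lipid genes gave 5 of 27 in each direction. Ppargc1a, the coactivator of mitochondrial biogenesis, read 5.82, 5.86 and 6.53 in C57BL/6J and 4.26, 4.97 and 4.78 in A/J, a difference of 1.40 (SE 0.24, adjusted p = 0.000928), with an untreated difference of -0.04. Cd36, a fatty acid transporter of capillaries and macrophages, differed by 0.89 (SE 0.11, adjusted p = 4.12e-05). In the IGF system the binding proteins split: Igfbp7 and Igfbp4 were higher in A/J by -0.71 (SE 0.10) and -0.61 (SE 0.09), with adjusted p of 0.000129 and 0.000245, and Igfbp6 was higher in C57BL/6J by 1.17 (SE 0.22, adjusted p = 0.00162). Of 11 IGF genes 3 were higher in A/J and 1 in C57BL/6J. Ndrg1, a hypoxia-induced gene, was higher in A/J by -0.99 (SE 0.19, adjusted p = 0.00233), 1 of 4 called among 25 hypoxia and glycolysis genes. Of its other probe sets the one at -0.88 was called, and those at -0.69, -0.35 and -0.08 were not. With the mean of its probe sets Ndrg1 was not called (-0.60, adjusted p = 0.0604). Ppargc1a stood at 0.51 with the actin ratio in the fit (adjusted p = 0.65), and Igfbp7 and Igfbp4 kept their size there, at -0.78 and -0.61, but not their calls (adjusted p = 0.0622 and 0.114).

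Targets of p53, the factor that answers DNA damage, showed 3 of 27 higher in C57BL/6J and 2 in A/J, with a median of 0.04. Cdkn1a, its cell cycle inhibitor, read 10.41, 9.54 and 9.29 in A/J and 10.35, 10.29 and 10.18 in C57BL/6J and was not called, although without A/J array 1 it was, at 0.86 (adjusted p = 0.0346). The untreated means of Cdkn1a were 7.98 and 7.70, below every irradiated array of both strains. Pmaip1, a death gene, differed by 1.04 (SE 0.21, adjusted p = 0.00271) and was not called with the actin ratio in the fit (1.25, adjusted p = 0.176). Of 28 cell cycle genes 1 was higher in C57BL/6J and 3 in A/J, with a median of -0.18.

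Probe sets of one gene often gave different results. Of the 2415 called genes 1172 had another probe set that passed the filter on dim signals. In 434 of them another one was called in the same direction, and in 141 another one was called in the opposite direction. Atp8a1, a lipid flippase, read 10.67, 10.97 and 11.11 in C57BL/6J and 7.51, 8.19 and 8.38 in A/J, a difference of 2.89 (SE 0.21, adjusted p = 2.36e-07) with an untreated difference of 0.35. Of its other probe sets, the one at 2.04 was called in the same direction (adjusted p = 0.000167), the one at -0.88 in the opposite direction (adjusted p = 0.0236), and the rest were not called. Sfpq, a splicing factor, read 9.90, 9.50 and 9.41 against 6.60, 7.05 and 7.07, a difference of 2.69 (SE 0.22, adjusted p = 1.01e-06), and of its other probe sets 3 were called in the same direction, at 0.61, 0.87 and 0.92. Trim34a, a TRIM family protein, differed by 3.96 (SE 0.34, adjusted p = 1.38e-06) and by -1.36 on another probe set, and was not called with the actin ratio in the fit (2.43). Among genes described above, a further probe set was not called for Col1a1 (-0.82), Pdgfb (-0.23), Selp (-0.53), Il6ra (0.81), Gsta3 (0.37), Gclm (-0.18) and Ppargc1a (0.15). The same held for Thbs1 (-0.99) and for a probe set of Igfbp4 (0.29).

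Counts of the lists often turned on single arrays. Of 46 list counts of 1 to 3 genes, 32 moved by more than 1.5 times when some single irradiated array was left out, as did 14 of 23 counts of 4 or more. The 3 cell cycle genes higher in A/J became 0 without A/J array 2, and the 3 cardiac muscle genes became 1 without C57BL/6J array 1. The 2 p53 targets higher in A/J became 0 without A/J array 1 or C57BL/6J array 3, the 2 CC chemokines higher in A/J became 0 without A/J array 3 or C57BL/6J array 2, and the 2 CXC chemokines higher in A/J became 0 without A/J array 2 or C57BL/6J array 3. Of the glucocorticoid response and metallothioneins list 1 gene was higher in C57BL/6J without A/J array 1 or C57BL/6J array 3, and 2 were without A/J array 3. Of the lipid and cholesterol metabolism list 2 genes were higher in A/J without C57BL/6J array 2, and 3 were without any one of the A/J arrays.

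The scaling and the arrays fitted also ended calls of named genes. Without scaling 21 of the 107 were not called, all of them higher in C57BL/6J in the comparison as reported, around the all-gene median of -0.64. They were Cd36, Cd3d, Cd79a, Cyp2e1, Gclc, Gclm, Gsta3, H2-Aa, H2-Ab1, Ifit3, Igfbp6, Il6ra, Irgm2, Itih4, Klrd1, Ms4a1, Ogn, Pmaip1, S100a8, Srgn and Tap1. With only the 6 irradiated arrays in the fit 17 were not called, 4 of them higher in C57BL/6J. These were Acta2, Aqp5, Bdkrb2, Bmp2, Col3a1, Col5a2, Des, H2-Aa, Hmox1, Hpgd, Marco, S100a8, Sele, Srgn, Thbs1, Timp1 and Vsig4.

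Around the threshold, Bdkrb2 and Bmp2, with adjusted p of 0.0497 and 0.0498, were just inside, at differences of -0.56 and -0.91. Zcrb1 and Cybc1, with adjusted p of 0.05004 and 0.0501, were just outside, at 0.29 and -0.39. Single arrays decided the calls of both genes just inside. Bdkrb2 was not called without A/J array 1 or 3 or C57BL/6J array 1 or 3, with adjusted p of 0.0800 to 0.187, and Bmp2 was not called without A/J array 2 or 3 or C57BL/6J array 2 or 3, with adjusted p of 0.0997 to 0.197. Neither was called with the actin ratio in the fit, at 0.21 and -2.19.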

How the data were processed

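Total RNA of the right lung was labelled with biotin and hybridized to single-colour arrays of 45101 probe sets, 1 array per sample, 18 in all. The authors deposited 1 linear signal intensity for each probe set on each array. MAS5 is named, without a version, in the submitters' processing notes. Scanner files were not used here. Intensities plus 7, the rounded 25th percentile of all values, were put on the log2 scale and quantile-normalized. A probe set was kept when it exceeded the overall median on at least 3 arrays, which left 25726, and the one with the highest mean stood for its gene, giving 12405 genes. Of 35890 annotated probe sets 34958 named 1 gene and 932 several or none, and 9211 probe sets of the table, controls included, had no annotation. Means of 6 groups were fitted with limma 3.58.1 in R 4.3.3 on 12 residual degrees of freedom, with Benjamini-Hochberg adjustment over all genes. The scripts were tested on simulated data.

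Groups follow the sample labels. Same-numbered samples of the strains did not deviate together (correlations of -0.189, -0.0028 and -0.0606 between irradiated arrays), so numbers were not used as pairs. Named genes were the 15 highest and 15 lowest called differences without overlap, up to 6 called members of a list, the 6 highest and 6 lowest differences of strain differences, members of the strain allele list, a fixed set that includes Il6 and Col1a1, and the 5 genes on each side of the threshold. Not all were described. The members and lists were chosen with earlier results of these data known. Alternatives covered scaling, the filter, the pseudocount, probe set averaging, the arrays fitted, array weights, the actin ratio, a replicate block and single arrays left out.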

Additional observations from a re-analysis of the deposited data

Results flagged for a closer look

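The C57BL/6J minus A/J difference changed between untreated and irradiated lung in 668 genes by the limma test of the difference of strain differences, at an adjusted p under 0.05. The 6 highest changes toward C57BL/6J were those of Cxcl5 (2.99), H2-Ea (2.98), Arntl (2.80), Npas2 (2.62), Sfpq (2.59) and Gprin3 (2.57), on the log2 scale. The 6 furthest toward A/J were those of Krt4 (-8.81), Lce1h (-4.94), Lce3c (-4.75), Dbp (-4.70), Fam25c (-4.43) and Krt78 (-4.05). Krt4, Lce1h, Lce3c and Krt78 are genes of stratified epithelium, and their signal was high on irradiated A/J array 3 or untreated C57BL/6J arrays 1 and 3. Without those 3 arrays the change of Krt4 was -2.25 (limma adjusted p = 0.262), while Dbp kept -4.50 (limma adjusted p = 0.000186). Arntl, Npas2 and Dbp are clock genes. The actin ratio in the fit ended this call for Cxcl5, H2-Ea, Npas2, Sfpq and Gprin3 (limma adjusted p = 0.0562, 0.186, 0.096, 0.102 and 0.313). Gprin3 then stood at 0.88. It also ended the calls of Krt4, Lce1h, Lce3c, Fam25c and Krt78. The value of H2-Ea is that of the probe set used for the gene, and on its second probe set the irradiated strains differed by -1.81.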

How the results depend on the processing

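The irradiated comparison had 2415 called genes and kept a count within 1.5 times of that in all alternatives except 3: 5235 with median centring, 1082 with only the groups compared and 375 with the actin ratio in the fit. Leaving out single arrays gave 1753 to 2340. The untreated count of 1292 fell by more than that to 384 without scaling and 405 without the 3 arrays with squamous signal, and single arrays left out gave 853 to 1157. The count of 668 for the difference of strain differences was 251 without scaling, 439 without the filter, 98 with the actin ratio, 87 without the 3 arrays and 1182 with array weights, and single arrays left out gave 351 to 713. With the replicate number as a block, the numbers not pairing the samples, the counts were 2305, 1223 and 618.

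Of 131 named genes 94 kept direction and call without scaling, 116 with median centring and 61 with the actin ratio, where 61 lost the call and 8 changed sign. Signs changed without scaling for Cdkn1a (-0.0668), Cxcl5 (-0.0702), H2-Eb1 (-0.273), Saa3 (-0.326), Srgn (-0.179), Tgfb1 (-0.051) and Zcrb1 (-0.357), and with median centring for Saa3 (-0.0486) and Zcrb1 (-0.0794). They changed with array weights for Cxcl5 (-0.122) and Pecam1 (0.0758). With the actin ratio they changed for Acta2 (0.0895), Bdkrb2 (0.213), H2-Aa (-0.12), H2-Eb1 (-0.0205), Pecam1 (0.334), Saa3 (-0.355), Tgfb1 (-0.539) and Thbs1 (0.816). Over single arrays left out the values ranged from -0.121 to 0.247 for Cxcl5, from -0.958 to 0.22 for Mmp12, from -0.236 to 0.114 for Pecam1 and from -0.209 to 0.664 for Saa3. Cxcl5 was at -0.0369 without the 3 arrays with squamous signal. The cause was not tested. Of these genes Acta2, Bdkrb2, H2-Aa, Srgn and Thbs1 were called in the comparison as reported. With 3 arrays a group, precision is limited by their number.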

Other observations

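Of 25726 probe sets that passed the filter, 3806 did not name a single gene. Of these 1201 (31.6%) were called between the irradiated strains at an adjusted p under 0.05 over all probe sets, against 23.6% of all that passed the filter. They enter no list above.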
